A study of Mus musculus with 4 samples.

Results

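The 9 genes described here include Asns, Chac1, and 4 transcription factors and regulators of the amino acid response (Atf4, Atf5, Ddit3 and Trib3). The others are the serine synthesis genes Phgdh and Psat1, and Shmt2, which turns serine into glycine. The 9 genes were chosen by name because Asns had no count in either knockout library, to see whether other genes of the amino acid response followed it. The count of Asns in the cKO libraries is therefore how it was chosen and is given as a description, with no test. Of the 9 genes, 8 had a row among the 21044 genes of the FPKM table and counts in the pairwise tables, and the expression of Chac1 was not analysed here. The edgeR test covered 6 of these 8 genes, out of 13086 in all, because Atf5 and Trib3 had too few counts to pass the filter.

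Microglia taken from the corpus callosum, the main white matter tract between the hemispheres, of mice at postnatal day 7 gave the RNA. The groups were 2 libraries from Lag3fl/fl mice (WT), in which Lag3 carries the floxed allele, and 2 libraries from Lag3cKO-Cx3 mice (cKO), in which Lag3 was deleted by a driver that the strain name ties to Cx3. Lag3 encodes an inhibitory receptor of immune cells. No agent is named for either group, and the labels do not say whether the WT mice carried the driver, so its presence and the loss of Lag3 cannot be told apart. The number of animals behind each library is not stated, and the tests therefore rest on the spread between libraries alone, which may be technical.

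Total counts ranged from 14645187 to 16770162 per library. Lag3 had 6064 and 10007 counts in WT replicates 1 and 2 and 595 and 257 in cKO replicates 1 and 2, and Cx3cr1, the fractalkine receptor gene of microglia, had 101021 and 96016 against 57168 and 45500. The second cKO library stood apart, with 12787 genes detected against 14840 to 15899 in the other 3. The female transcript Xist had 0, 0, 117 and 4355 counts in the same order, and the Y-linked gene Ddx3y had 1485, 1306, 1795 and 0, so sex differed between cKO replicate 2 and the WT libraries. The 12 microglial markers summed to 29955 to 33613 CPM (counts scaled to a common library size, with TMM factors) in all 4 libraries, against 199 to 551 CPM for 15 astrocyte markers.

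When cells run short of an amino acid, uncharged tRNA activates the kinase GCN2, which phosphorylates the initiation factor eIF2. General translation falls and the mRNA of ATF4, a bZIP transcription factor, is translated more. ATF4 then drives genes for amino acid synthesis, import and tRNA charging, among them Asns, Psat1, Phgdh and Shmt2, and the stress regulators Ddit3, Trib3, Atf5 and Chac1. Because ATF4 is set largely at translation, the level of its mRNA is not a measure of its activity. In brain, serine synthesis through PHGDH is known best in astrocytes and neural progenitors.

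Asns encodes asparagine synthetase, which makes asparagine from aspartate and glutamine. Its promoter holds the amino acid response element that made it a standard reporter of ATF4. The stretches of the Asns and Trib3 promoters around the C/EBP-ATF response element are shown because these are the measured members with a match and the 2 that had no count in either cKO library. They come from RefSeq promoter windows on GRCm38.p6, on chr6:7693191-7693271 and chr2:152344039-152344085, both on the minus strand. They are written 5′ to 3′ in the direction of the gene, with the match in capitals.
Asns: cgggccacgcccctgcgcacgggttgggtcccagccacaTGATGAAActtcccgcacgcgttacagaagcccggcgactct
Trib3: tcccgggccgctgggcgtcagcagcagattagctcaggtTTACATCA
The motif searched was TGATGNAA on both strands, in windows from 250 bases before to 50 bases after each start. The Asns match began 23 bases before the RefSeq start on the strand of the gene. The Trib3 match lay just after the RefSeq start on the opposite strand. The gene positions given below for these genes have other starts, by which the Asns match lies inside the gene and the Trib3 match before it. Chac1 also held a match, 193 bases before its start, so 3 of the 9 genes did. No match was found in the windows of Atf4, Atf5, Ddit3, Psat1, Phgdh or Shmt2, which says only that these letters are not in those windows. Of all 27025 genes with a window, 4.51% held a match, which describes sequence and is no evidence of binding.

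Asns (ENSMUSG00000029752, chromosome 6, 7675169 to 7693254 on the minus strand, positions in GRCm38 here and for the genes that follow) had 101 and 146 counts in WT replicates 1 and 2 and 0 in both cKO libraries. On the length-scaled FPKM scale this was 2.33 and 3.56 in WT, and the gene was listed at 0 in both cKO libraries. The WT level was 8.20 ± 2.49 CPM (SD, n = 2). This mean was 43.3-fold above a floor of 3 counts in each cKO library, or 0.189 CPM on average. The floor covers counting error in cKO only, not the spread between libraries or the error of the WT mean. The ratio is thus a description and sets no bound on the difference. No exon of another annotated gene overlaps Asns.

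How common such a loss of all counts was across the genome could be counted directly. Of 8334 genes with at least 100 counts in both WT libraries, 1, Asns, had no count in both cKO libraries, a share of 0.0120%. The same zero count chose the gene, so nothing is read from this share. Irgq, Prkci, Irf4 and Tbc1d12 came next, with 2, 3, 5 and 6 counts in their higher cKO library, and were picked after their values were seen. In the opposite direction, 3 of 7817 genes with at least 100 counts in both cKO libraries had none in WT.

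Zero counts were spread unevenly over the cKO libraries. Among genes with at least 100 counts in both WT libraries, 6 were at 0 in cKO replicate 1 and 204 in cKO replicate 2. Asns lay close to the lower edge of that class, so the 1201 genes with 75 to 200 counts in both WT libraries form a closer comparison. In that class 11 genes, or 0.916%, were at 0 in cKO replicate 1 and 129, or 10.7%, in cKO replicate 2. The 5 genes at 0 in both were Asns, Kbtbd8, Pcdhb22, Mmp8 and Zfp940. The zero counts chose Asns, so these shares describe the libraries and nothing is read from them about the gene.

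**Figure D1:**
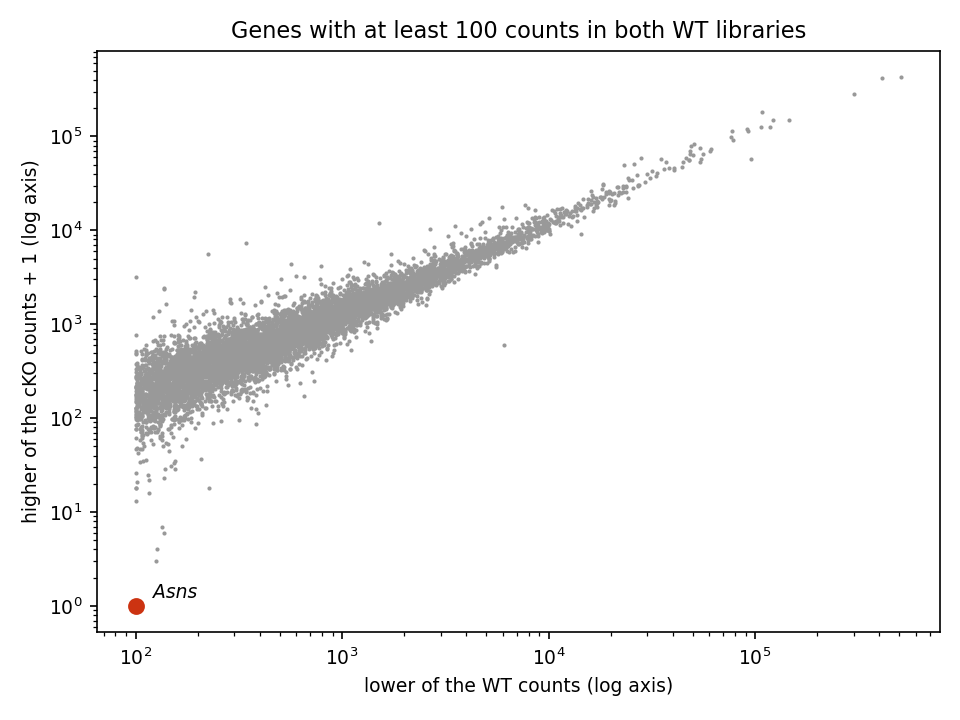
Counts of 8334 genes with at least 100 counts in both WT libraries, with the lower of the WT counts on the x axis and the higher of the cKO counts plus 1 on the y axis, both on log axes; each grey point is a gene. Asns, in red, lies at a cKO count of 0, and the next lowest gene, Irgq, had 2 counts in its higher cKO library.

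The genes whose pattern over the 4 libraries was most like that of Asns were ranked by Euclidean distance in centred log2(CPM + 1). The 5 closest were Zfp940, Myh3, Pcdhb22, Irf4 and Tbc1d12, at distances of 0.41, 0.42, 0.42, 0.46 and 0.47. Zfp940, a zinc finger gene, had 76 and 103 counts in WT and 0 in both cKO libraries. Myh3, an embryonic muscle myosin, had 68 and 114 counts in WT and 0 in both cKO libraries. Pcdhb22, a clustered protocadherin whose near-identical neighbours make its count uncertain, had 84 and 191 counts in WT and 0 in both cKO libraries. Irf4, an interferon regulatory factor of lymphoid and myeloid cells, had 143 and 137 counts in WT and 5 and 0 in cKO. None of the 5 is in the lists of amino acid response genes used here.

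Atf4 (ENSMUSG00000042406, chromosome 15, 80255184 to 80257540 on the plus strand) had 2293 and 2086 counts in WT and 2932 and 2089 in cKO. In FPKM it stood at 83.9 and 80.8 in WT and 101 and 82.7 in cKO, at percentile 97.4 of all genes by mean FPKM. On the FPKM scale the first cKO library was the highest of the 4, and the other cKO library lay between the WT libraries. On the TMM-scaled CPM scale Atf4 was at 146 and 142 in WT and 175 and 139 in cKO, so cKO replicate 2 was the lowest. The edgeR log2 fold change was 0.12 with a standard error of 0.20, a 95% interval of -0.42 to 0.66 and an adjusted p = 0.9997. Atf4 mRNA was thus counted in every library, though its level is not a measure of ATF4 activity. The interval rests on a spread between libraries that may be technical, and the estimate turned to -0.05 without cKO replicate 1. Whether Atf4 had a part in the Asns counts was not tested.

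Ddit3, which encodes the stress factor CHOP (ENSMUSG00000025408, chromosome 10, 127290774 to 127296288 on the plus strand), had 346 and 209 counts in WT and 252 and 339 in cKO. Its FPKM was 12.7 and 8.15 in WT and 8.77 and 13.5 in cKO. The libraries formed a high pair, WT replicate 1 and cKO replicate 2, and a low pair, WT replicate 2 and cKO replicate 1, so the groups overlapped fully. The edgeR log2 fold change was 0.05 with a standard error of 0.49, a 95% interval of -1.23 to 1.33 and an adjusted p = 0.9997. The gene overlaps exons of a second gene model of the same name and of Mars on the opposite strand, and since the strand setting of the counting is not given, its reads may be shared.

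Trib3, a pseudokinase induced by ATF4 and CHOP that restrains them (ENSMUSG00000032715, chromosome 2, 152337422 to 152344032 on the minus strand), had 0 and 15 counts in WT and 0 in both cKO libraries. All of its signal came from WT replicate 2, at 0.471 FPKM. WT replicate 1 was at 0 like the cKO libraries, so Trib3 did not separate the groups. Atf5, a bZIP factor of the same response (ENSMUSG00000038539, chromosome 7, 44812256 to 44816658 on the minus strand), had 9 and 9 counts in WT and 11 and 4 in cKO, or 0.14 to 0.33 FPKM. The groups overlapped, and Atf5 shares exon sequence with Il4i1 and Nup62 on the opposite strand. Both genes were below the filter, and neither was tested.

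The 3 members of serine metabolism, Phgdh, Psat1 and Shmt2, were far more abundant than Asns. Phgdh, the first enzyme of serine synthesis from 3-phosphoglycerate (ENSMUSG00000053398, chromosome 3, 98313170 to 98339990 on the minus strand), had 13745 and 14098 counts in WT and 14715 and 12492 in cKO. Its FPKM was 349 and 379 in WT and 353 and 343 in cKO, which placed it at rank 102 of 21044 genes. On the FPKM scale the groups overlapped. On the TMM-scaled CPM scale both cKO libraries, at 876 and 833, lay below both WT libraries, at 877 and 962, while 20.0% of all tested genes had both cKO libraries below both WT libraries. The log2 fold change was -0.11 with a standard error of 0.14, a 95% interval of -0.48 to 0.27 and an adjusted p = 0.9997 in edgeR.

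Psat1, the aminotransferase of the next step (ENSMUSG00000024640, chromosome 19, 15904678 to 15947337 on the minus strand), had 6423 and 5082 counts in WT and 6131 and 5183 in cKO. Its FPKM was 95.2 and 79.8 in WT and 85.9 and 83.2 in cKO, with both cKO libraries inside the WT range. On the TMM-scaled CPM scale it was at 409.6 and 346.9 in WT and 365.1 and 345.6 in cKO, with cKO replicate 2 just below both WT libraries. The edgeR log2 fold change was -0.09 with a standard error of 0.17, a 95% interval of -0.53 to 0.35 and an adjusted p = 0.9997.

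Shmt2, the mitochondrial enzyme that turns serine into glycine and a one-carbon unit (ENSMUSG00000025403, chromosome 10, 127517123 to 127522444 on the minus strand), had 1670 and 1805 counts in WT and 1734 and 1799 in cKO. Its FPKM was 33.9 and 38.8 in WT and 33.3 and 39.5 in cKO. The libraries again paired across the groups, with the first of each group low and the second high, and Shmt2 overlaps an exon of Ndufa4l2 on the opposite strand. The edgeR log2 fold change was -0.04 with a standard error of 0.21, a 95% interval of -0.60 to 0.51 and an adjusted p = 0.9997.

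**Figure D2:**
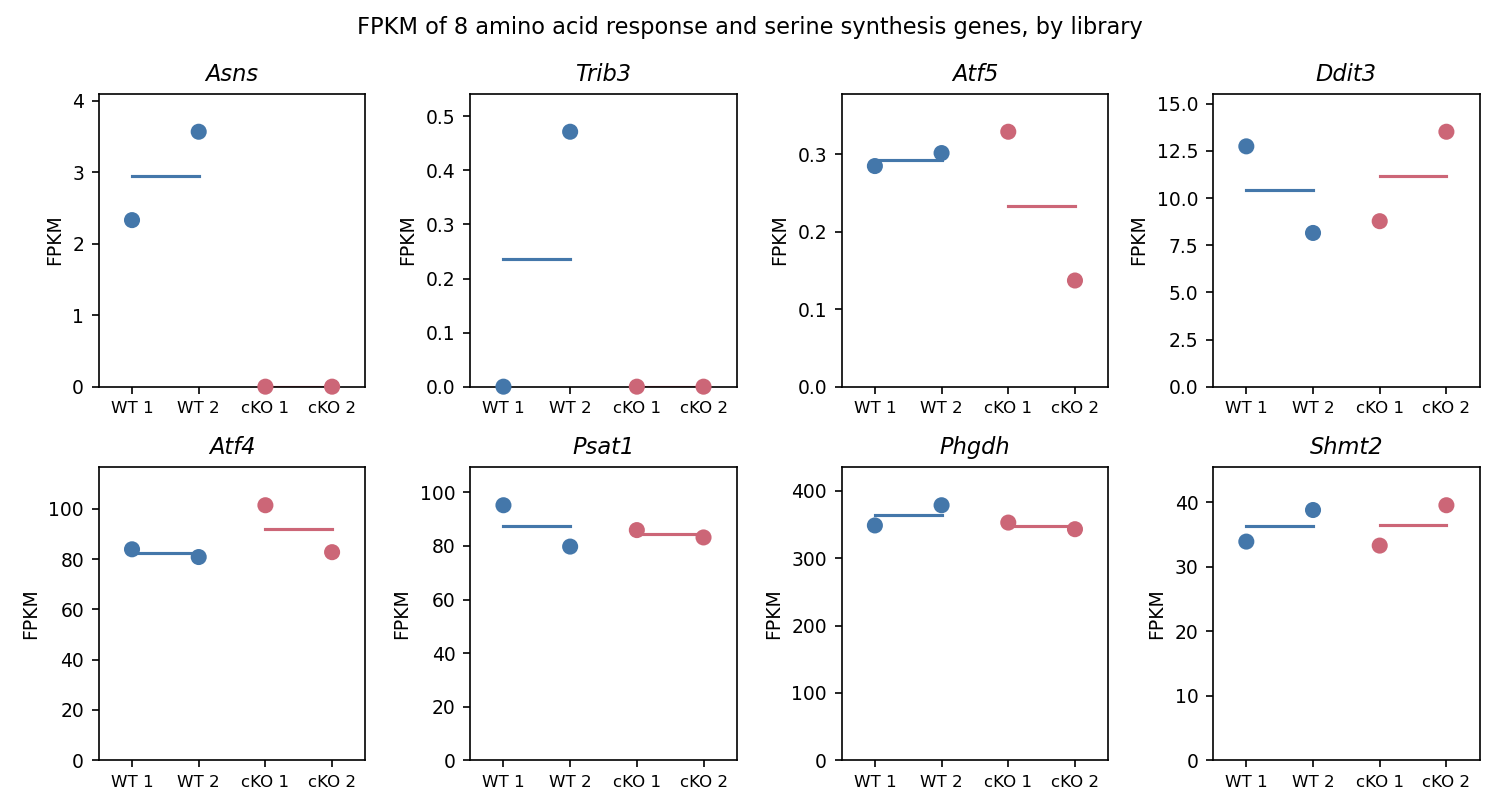
FPKM of the 8 measured genes in each library, 1 panel per gene with its own y axis from 0; points are libraries (blue WT, red cKO) and lines are group means of 2. Asns was at 2.33 and 3.56 in WT and listed at 0 in both cKO libraries, Trib3 had a value in WT replicate 2 alone, and the groups overlapped in the other 6 panels.

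Ordered by FPKM, the 8 genes spanned a wide range. Phgdh, at 343 to 379 FPKM, was above every other member in every library. Atf4, at 80.8 to 101, and Psat1, at 79.8 to 95.2, overlapped and could not be ordered. Shmt2 at 33.3 to 39.5 and Ddit3 at 8.15 to 13.5 followed without overlap. Asns, at 2.33 and 3.56 in WT, lay below Ddit3 and above Atf5 and Trib3 there, and in cKO it lay below Atf5.

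Over the 5 tested genes other than Asns the median log2 fold change was -0.04, with 2 fitted higher and 3 lower in cKO. Over all 13086 tested genes the median was -0.03. The quartiles there, -0.45 and 0.39, are those of single genes, which vary more than a median does. None of the 5 passed the edgeR test, in which 0 genes, 0%, had an adjusted p under 0.05, while 608 genes had an unadjusted p under 0.05 and DESeq2 called 39. The design thus called nothing with edgeR, Lag3 included, and the intervals rather than the p-values describe what the libraries can tell. The direction of the fitted change turned when 1 library was left out for Atf4 (without cKO replicate 1), Ddit3 (without WT replicate 2 or cKO replicate 2), Psat1 (without WT replicate 1) and Shmt2 (without WT replicate 2 or cKO replicate 1). Phgdh stayed lower in cKO in all 4 such fits, between -0.18 and -0.04.

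**Figure D3:**
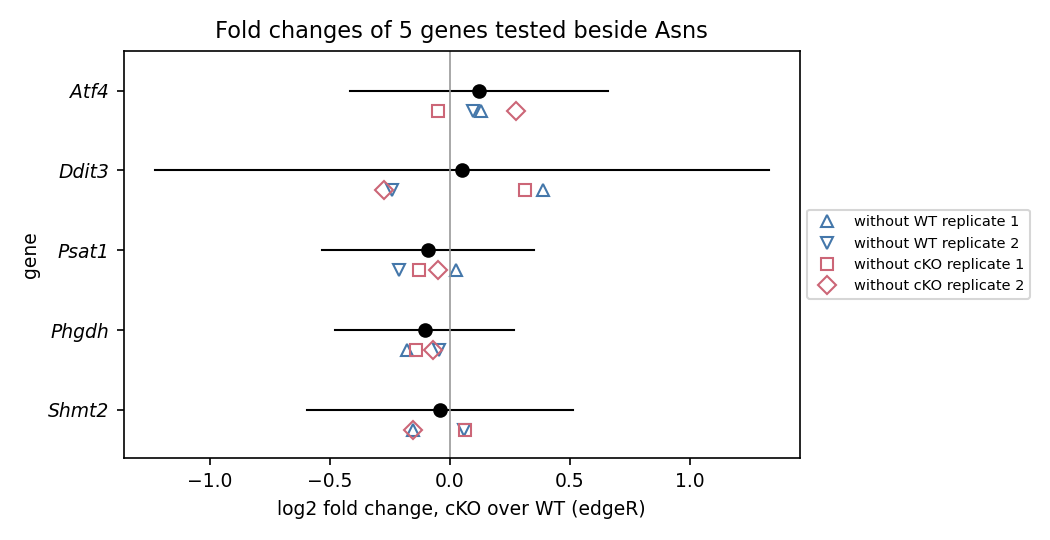
Log2 fold change of cKO over WT from edgeR for the 5 tested genes other than Asns; black points with lines are the estimates from all 4 libraries with 95% intervals, and open symbols are the estimates with 1 library left out. All 5 intervals include 0, and the widest, that of Ddit3, runs from -1.23 to 1.33.

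The authors' deposited tables compare each cKO library with each WT library, so that the 4 tables share libraries and are no independent repeats. In the authors' deposited tables Asns had log2 fold changes of -7.74, -8.35, -7.54 and -8.16, with a count of 0 replaced by 0.5, and it was called lower in all 4. The authors' deposited tables share 13269 genes, of which 5.22% were called lower each time, and since the same counts chose Asns nothing is read from this share. Trib3 was called lower in the authors' deposited tables for the 2 comparisons with WT replicate 2, at -5.07 and -4.87, and had no row in the others. The other 6 genes were called in none of the authors' deposited tables, in which the smallest log2 fold called was 1.00 in size. A missing call can therefore reflect fold size alone: in the authors' deposited tables Atf4 had p = 1.3e-15 at a log2 fold of 0.33 between cKO replicate 1 and WT replicate 2. Atf5 reached -1.06 and -1.14 with cKO replicate 2 in the authors' deposited tables, at p = 0.205 and 0.172.

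The wider set of ATF4 and amino acid response targets held 30 genes, of which 28 were in the tables and 21 were tested. None passed the edgeR test in either direction, but no gene at all did, so this says nothing particular to the list. Of the 21, 12 were fitted higher and 9 lower in cKO. The median was 0.21 on the log2 scale, with a range of 0.07 to 0.49 when 1 library was left out. Both cKO libraries lay above both WT libraries for 5 of the 21 and below them for 4, against 15.8% and 20.0% of all tested genes. The 4 most abundant genes of the list did not share 1 pattern. Slc3a2, the heavy chain of amino acid transporters, had FPKM values of 113 and 103 in WT and 98.6 and 127 in cKO. Eif4ebp1, a translation inhibitor induced by ATF4, stood at 46.0 and 41.2 in WT and 46.5 and 40.0 in cKO. Neither gene separated the groups.

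The other abundant targets lay apart without passing the test. Atf3, a stress-induced bZIP factor, had FPKM values of 230 and 214 in WT and 168 and 144 in cKO. Both cKO libraries were below both WT libraries, with an edgeR log2 fold change of -0.55, a standard error of 0.17 and an adjusted p = 0.9997. Ppp1r15a, which encodes GADD34, the stress-induced partner of the eIF2 phosphatase, had 37.1 and 51.1 in WT and 52.5 and 99.2 FPKM in cKO. Here both cKO libraries were above both WT libraries, though cKO replicate 1 exceeded WT replicate 2 by little, and the log2 fold change was 0.73 with a standard error of 0.37.

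Of the 28 targets in the tables, 3 were at 0 in both cKO libraries, and all 3 were scarce in WT. Cebpb, a C/EBP partner of ATF4, had 21 and 2 counts in WT, and Stc2, a stress-induced secreted protein, had 35 and 0. Cth, the last enzyme of cysteine synthesis, was at 0.023 and 0.024 FPKM in WT and listed at 0 in cKO. None of the 3 had counts near those of Asns in both WT libraries, and none was tested. The share of all genes this scarce in WT that were at 0 in cKO was not counted, so nothing is read from these zeros. Slc1a4 and Gdf15, named after their values were seen, went the other way in at least 1 cKO library. Slc1a4, an importer of alanine and serine, had CPM values of 0 and 5.80 in WT and 26.4 and 0 in cKO. Gdf15, a stress-induced cytokine, had 5.42 and 1.57 CPM in WT and 7.92 and 22.5 CPM in cKO, with both cKO libraries higher.

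The TGATGNAA match was found in 9 of the 24 targets with a promoter window, against 4.51% of all genes with a window, which describes sequence only. The 6 of these 9 that were tested differed in sign. Slc1a4 and Nupr1 were fitted at 2.18 and 0.73 on the log2 scale, with standard errors of 3.06 and 0.83. Atf3, Got1, Pck2 and Pycr1 were fitted at -0.55, -0.16, -0.08 and -0.75, with standard errors of 0.17, 0.37, 0.50 and 2.33. None of the 6 passed the edgeR test, which no gene passed, and apart from Atf3 their groups overlapped. Save for Atf3, each standard error was larger than the size of the fitted value, so no direction is read for the genes that carry this motif.

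The eIF2 kinases and other genes upstream of ATF4 were 16 listed genes, all of them tested. None passed the edgeR test, which no gene passed. Fitted changes were higher for 9 and lower for 7, with a median of 0.14 that turned to -0.23 without cKO replicate 2 and to -0.01 without WT replicate 2. Both cKO libraries lay above both WT libraries for 3 of the 16 and below them for 4, against 15.8% and 20.0% of all tested genes. Eif2s1, the eIF2 subunit that is phosphorylated, had FPKM values of 23.6 and 19.8 in WT and 19.3 and 35.6 in cKO. Eif2b2, a subunit of the exchange factor of eIF2, stood at 60.6 and 52.2 in WT and 45.6 and 47.5 in cKO, both cKO libraries being lower. Ppp1r15b, the constitutive phosphatase partner, and Dnajc3, an inhibitor of eIF2 kinases, had log2 fold changes of -0.04 and 0.16, with standard errors of 0.31 and 0.19. The 95% interval of Eif2s1, -0.60 to 1.18, still includes a difference of 1 on the log2 scale.

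The 4 eIF2 kinases, named here for their role after their values were seen, had unlike patterns. Eif2ak4, which encodes the amino acid sensor GCN2, was at 29.0 and 47.5 CPM in WT and 31.9 and 16.6 CPM in cKO, with overlapping groups. Eif2ak3, the endoplasmic reticulum stress kinase PERK, was at 8.67 and 9.76 CPM in WT and 2.92 and 1.67 CPM in cKO, both cKO libraries being lower. Eif2ak2, the interferon-induced kinase PKR, was at 30.0 and 18.0 CPM in WT and 40.7 and 63.5 CPM in cKO, both cKO libraries being higher. Eif2ak1, the heme-regulated kinase, was at 45.9 and 73.6 CPM in WT and 70.2 and 9.93 CPM in cKO, so cKO replicate 2 alone was low. Gcn1l1, which encodes the coactivator of GCN2, showed a similar gap between the cKO libraries, at 61.6 and 9.60 CPM against 103 and 99.0 CPM in WT.

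All 20 cytosolic tRNA synthetase genes, many of which are ATF4 targets, were in the tables and tested. None passed the edgeR test, which no gene passed. Of the 20, 14 were fitted higher and 6 lower, and the median log2 fold change was 0.09, between 0.03 and 0.10 with 1 library left out. Both cKO libraries lay above both WT libraries for 4 of the 20 and below them for 3, against 15.8% and 20.0% of all tested genes. Nars, which charges tRNA with asparagine, the product of Asns, had 3540 and 3898 counts in WT and 4483 and 6056 in cKO. Its CPM was 226 and 266 in WT and 267 and 404 in cKO, so the cKO libraries were higher by a narrow margin in replicate 1, and the log2 fold change was 0.45 ± 0.26 (standard error). Farsb, Kars and Rars, for phenylalanine, lysine and arginine, had log2 fold changes of 0.03, 0.12 and 0.24 and overlapping groups.

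The serine, glycine and folate genes outside the members were 20, all tested, and none passed the edgeR test, which no gene passed. They were fitted higher for 15 and lower for 5, with a median log2 fold change of 0.25 that lay between 0.14 and 0.51 with 1 library left out. Both cKO libraries were above both WT libraries for 6 of the 20 and below for 1, against 15.8% and 20.0% of all tested genes. The abundant members Mthfd1, Gcsh, Dld and Mat2a, which act in the folate cycle, the glycine cleavage system and methionine activation, had overlapping groups and log2 fold changes of 0.34, 0.14, 0.05 and -0.27. Psph, the enzyme of the last step of serine synthesis, was scarce beside Phgdh and Psat1. It stood at 1.49 and 2.31 FPKM in WT and 2.52 and 3.74 FPKM in cKO, both cKO libraries being higher, and the log2 fold change was 0.67 ± 0.61 (standard error). Psph was named for its place in the pathway after its values were seen.

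Of 14 listed genes for asparagine, aspartate, glutamine and proline, 13 were in the tables and tested. None passed the edgeR test, which no gene passed. Fitted changes were higher for 4 and lower for 9, with a median of -0.16 that turned to 0.06 without cKO replicate 1. Glul, which makes the glutamine that asparagine synthetase uses, had FPKM values of 61.0 and 56.2 in WT and 56.1 and 137 in cKO, so that cKO replicate 2 alone was high. Mdh1 and Mdh2, the malate dehydrogenases of cytosol and mitochondria, had log2 fold changes of -0.16 and -0.06, with standard errors of 0.15 and 0.27. Asnsd1, a gene with an asparagine synthetase domain, had 21 and 29 counts in WT and 16 and 10 in cKO and was named after its values were seen.

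The other branches of the unfolded protein response, which run through the sensors ATF6 and IRE1, were 12 genes, all tested. None passed the edgeR test, which no gene passed. Of the 12, 9 were fitted higher and 3 lower, and the median log2 fold change was 0.14, which turned to -0.09 without cKO replicate 2. Hspa5, the main chaperone of the endoplasmic reticulum, had FPKM values of 244 and 220 in WT and 207 and 313 in cKO. Hsp90b1, Sdf2l1 and Xbp1 had log2 fold changes of 0.05, 0.15 and 0.21, with standard errors of 0.16, 0.15 and 0.24.

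**Figure D4:**
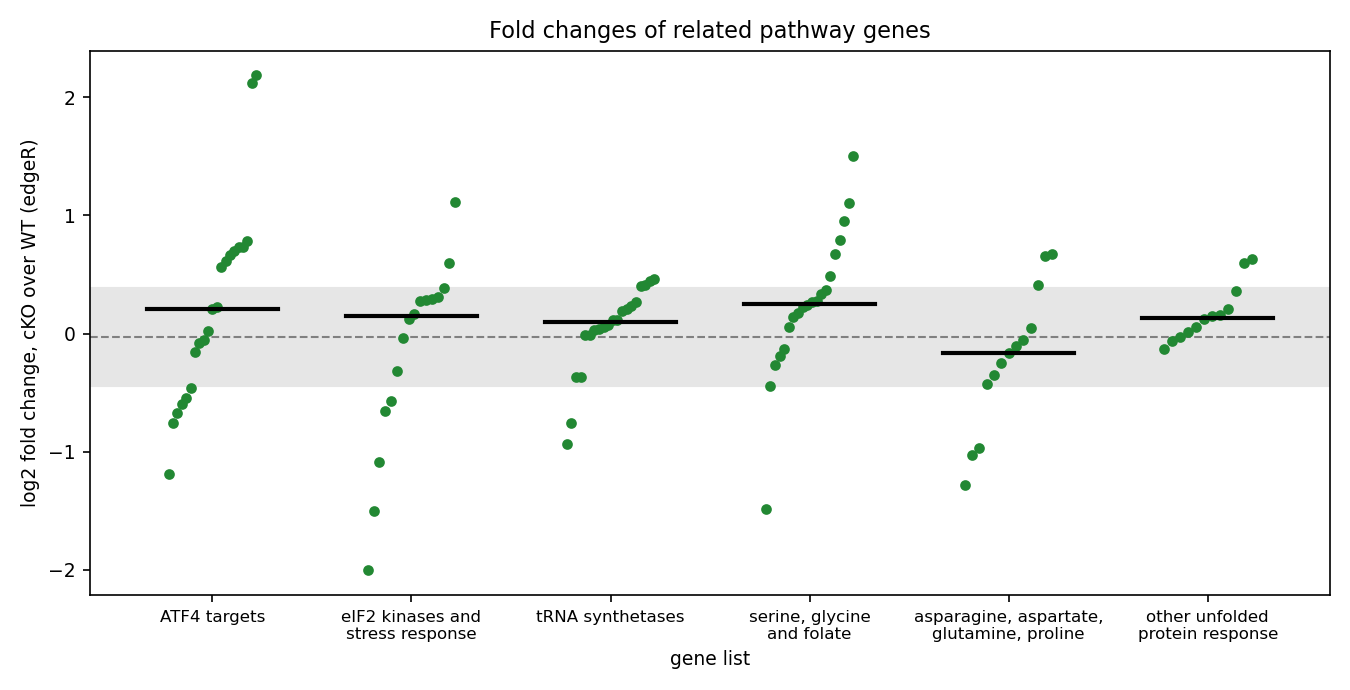
Log2 fold change of cKO over WT from edgeR for the tested genes of 6 lists; each point is a gene, placed in order of its value within its list, and black bars are list medians. The dashed line and grey band are the median (-0.03) and quartiles (-0.45 to 0.39) of single genes, over all 13086 tested. The 6 list medians ran from -0.16 to 0.25. A median of a list varies less than single genes do, so nothing is read from its place in the band.

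The summed astrocyte markers were highest in cKO replicate 2, and Phgdh, Psat1, Glul and Aldh1l1 are known to be expressed in astrocytes. Aldh1l1, a folate enzyme that is in both the astrocyte list and the folate list, was at 7.97 and 6.55 CPM in WT and 8.52 and 16.7 CPM in cKO. The 15 astrocyte markers summed to 241 and 199 CPM in WT and 257 and 551 CPM in cKO, and 12 of the 13 tested had a fitted value above 0, the median being 1.44 on the log2 scale. Aqp4, an astrocyte water channel, was at 9.82 and 15.3 CPM in WT and 14.6 and 66.0 CPM in cKO. Some markers were scarce. Gjb6 had 2 and 6 counts in WT and 0 in both cKO libraries, and S100b had 9 and 11 in WT and 1 and 0 in cKO. Slc4a4 had 5 and 27 counts in WT and 115 and 0 in cKO, and Fgfr3 had 7 and 0 in WT and 41 and 90 in cKO. Phgdh was at 877 and 962 CPM in WT and 876 and 833 CPM in cKO. Glul was at 205 and 191 CPM in WT and 186 and 446 CPM in cKO. The part of these cells in the values of the 8 genes was not tested, and in bulk samples fewer cells of a type and less RNA per cell cannot be told apart. Neutrophil and monocyte markers summed to 65.8 and 24.9 CPM in WT and 43.5 and 194 CPM in cKO. They did not move together: of 9 tested, 7 were fitted higher and 2 lower. Mmp8 had 100 and 76 counts in WT and 0 in both cKO libraries. Mpo and Elane had 129 and 115 counts in WT replicate 1 and were at 0 in WT replicate 2 as well as in both cKO libraries. Oligodendrocyte markers summed to 133 and 120 CPM in WT and 249 and 159 CPM in cKO. Markers of border macrophages summed to 489 to 538 CPM, of oligodendrocyte precursors to 27.1 to 67.1 CPM, of neurons to 5.17 to 15.8 CPM, and of endothelial cells and pericytes to 19.5 to 31.3 CPM.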

How the data were processed

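RNA-seq libraries of microglia, 2 WT and 2 cKO, were analysed from the deposited tables. Per the submitters' processing notes, the tools were TopHat2 2.0.12, HTSeq 0.6.0 and Bowtie2 2.2.3 and the build mm9, with no settings, strand or annotation stated. Gene positions matched GRCm38 instead: 92.1% of 21008 genes had the same position in GENCODE M21.

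A table of FPKM values covering 21044 genes was deposited, besides 4 pairwise tables that hold read counts, per the file headers. These deposited tables also hold a normalized signal, a fold ratio with its log2, and a p-value. The sources used here do not give the test behind the authors' p-values, and their adjusted p was below the p-value for most genes, so the authors' calls and fold changes were used, with their adjusted p in 1 alternative and single p-values beside a call.

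Counts were joined for 18459 genes. Of 73836 cells, 4315 missing ones were recovered from the FPKM values and 100.0% were whole within 1e-06, the highest being 4. Tables sharing a library had 0 genes with different counts.

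Counts were tested with edgeR 4.0.16 in R 4.3.3 (TMM, filterByExpr, quasi-likelihood F test, Benjamini-Hochberg adjustment over 13086 genes, threshold 0.05), after tests on simulated data. Standard errors were derived from the F statistic. Alternatives were DESeq2 1.42.0, other scaling and filters, limma 3.58.1 on log2(FPKM + 1) and log2(FPKM + 0.1), a replicate block and leaving out each library. The members, lists and tests were chosen with earlier results of these data known. Named genes are the members, the 4 genes of each list with the highest mean FPKM, the 5 nearest to Asns (predicted, clone-named, microRNA and pseudogenes left out), Lag3 and Cx3cr1, and any list gene past the edgeR threshold. All other named genes were chosen after their values were seen, such as for low counts in cKO, a promoter match, their role, an unadjusted p, or as astrocyte markers beside a member. Not every gene the rule names is reported here. Symbols of the members and of the target list were matched to RefSeq promoter windows, for 9 of 9 and 24 of 30 genes.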

Additional observations from a re-analysis of the deposited data

How the results depend on the processing

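With 2 libraries per group the depth does not limit the abundant genes, but the spread between libraries does, and Trib3 and Atf5 were too scarce to test. DESeq2 called 39 genes. Leaving out 1 library gave 0 to 748 genes called by edgeR, the 748 without cKO replicate 1, where the spread of the lone cKO replicate 2 is taken from the WT libraries; the cause was not tested. The median of the members other than Asns ranged from -0.069 to 0.025 with 1 library left out. Over the same fits the log2 fold change ranged from -0.051 to 0.27 for Atf4, -0.28 to 0.39 for Ddit3, -0.21 to 0.025 for Psat1 and -0.15 to 0.063 for Shmt2. Shmt2 was at 0.0032 with total counts only, 0.00037 with limma on log2(FPKM + 1) and 0.00033 with log2(FPKM + 0.1). The fitted value of Asns was -9.46 with DESeq2 and ranged from -10.28 to -9.68 with 1 library left out, while limma gave -1.96 on log2(FPKM + 1) and -4.90 on log2(FPKM + 0.1), since it depends on how a count of 0 is handled. The list medians with 1 library left out ranged from 0.07 to 0.49 for ATF4 targets, -0.23 to 0.24 for the genes upstream of ATF4, 0.03 to 0.10 for tRNA synthetases, 0.14 to 0.51 for serine and folate genes, -0.19 to 0.06 for asparagine and related genes and -0.09 to 0.24 for the other unfolded protein response. At an adjusted p under 0.001 in the authors' deposited tables, 1 member, Asns, was called in all 4, as with the tables' own calls.

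The labels do not say whether libraries with the same replicate number shared a litter or day, so a pairing is not known. The deviations of same-numbered libraries correlated at -0.02 across genes. With the replicate block edgeR called 0 genes, 252 had an unadjusted p under 0.05, the median of the members other than Asns was -0.04, and Atf4 and Phgdh were at 0.11 and -0.10.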

Other observations

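Gatsl2, now named Castor2, encodes a partner of the arginine sensor of the TORC1 pathway and was noticed after its values were seen, as the seventh nearest gene to Asns by pattern. It had 73 and 157 counts in WT replicates 1 and 2 and 3 and 1 in cKO replicates 1 and 2, at a distance of 0.48 from Asns. Its edgeR log2 fold change was -5.87 with a standard error of 1.34, and like every other gene it did not pass the test over all genes, with an adjusted p = 0.9997.

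Among the ATF4 targets, 2 genes had an unadjusted p under 0.05 in edgeR, both lower in cKO in both libraries. Besides Atf3 this was Xpot, an exporter of tRNA from the nucleus, at 13.8 and 15.9 FPKM in WT and 9.28 and 9.94 FPKM in cKO. Its log2 fold change was -0.67 ± 0.23 (standard error). Among the tRNA synthetases the 1 such gene was Vars, for valine, at 17.6 and 18.7 FPKM in WT and 12.9 and 9.20 FPKM in cKO. None of these genes had an edgeR adjusted p under 0.9997, and Xpot and Vars were named after their values were seen.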
